A study of Mus musculus with 12 samples.

Results

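Cancer-associated fibroblast markers were described as 10 genes out of 19937 that the array measured: the receptors Pdgfra and Pdgfrb, the surface proteins Fap and Pdpn, the intracellular proteins S100a4 and Vim, and the secreted matrix proteins Dcn, Lum, Postn and Fn1. They were chosen by gene symbol, and each was read by 1 probe set that carries no other symbol, so all 10 were measured and none was lost to a filter. The tumours came from TRAMP-C2Re3, a mouse prostate carcinoma line, of which 50000 cells were placed in the prostates of C57BL6 mice, and they were harvested after 60 days. Hosts were wild type (WT, 6 tumours) or knocked out for p62 (p62 KO, 6 tumours), with 1 tumour and 1 array from each mouse, 12 in all. The protein p62, encoded by Sqstm1, is an autophagy receptor and signalling adaptor. The knockout is a property of the host and not of the injected cells, which were the same in both groups, so the RNA of a tumour mixes carcinoma cells with host cells. The labels do not describe the knockout allele. The protocol also names hosts lacking p62 and IL-6 together, which were not analysed here.

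Fibroblasts that settle in a carcinoma are called cancer-associated fibroblasts. They secrete and remodel collagen-rich matrix, answer to PDGF and TGF-beta, and take on different states, among them contractile, cytokine-secreting and antigen-presenting ones. No single gene marks them all. Fap and Pdgfra are among the more restricted markers, whereas Pdgfrb is also made by pericytes, Pdpn by lymphatic endothelium and mesothelium, S100a4 by many leukocytes, and Vim and Fn1 by most mesenchymal cells, including carcinoma cells in a mesenchymal state. The study's title places stromal fibroblasts and p62 at the centre of its question. The comparison of hosts asks whether these marker RNAs differ when the host lacks p62.

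The values are log2 intensities, so a difference of 1 is 2-fold. The 4 arrays with the narrowest spread of values, KO tumours 2 and 3 and WT tumours 2 and 5, had interquartile ranges of 2.15 to 2.59, against 2.70 to 2.95 for the other 8. On the first principal component, which held 58.5% of the variance, they lay at 1 end. Their scores ran widely, from 17.2 in WT tumour 2 to 83.6 in KO tumour 3, against -34.3 to -8.4 for the other 8. Marker results that these arrays turn or move are given with and without them. Sqstm1 stood at 8.73 ± 0.39 (SD, n = 6) in KO and 8.89 ± 0.23 (SD, n = 6) in WT tumours, which does not check the genotype, since the carcinoma cells contribute to it. Of the 8 epithelial genes, only Epcam lay below the lower quartile of its array, in all 12 tumours. The others lay above it in all 12, among them Krt8 at 7.76 to 8.65, Krt18 at 5.58 to 6.36 and Krt19 at 5.87 to 8.13. Of the 7 prostate secretory genes, 4 (Pbsn, Tgm4, Msmb and Defb50) were below it in all 12 tumours, and Sbp and Spink1 were below it in 11. All 10 fibroblast markers lay above the lower quartile.

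In tumours of KO hosts, none of the 10 markers differed from WT hosts beyond the spread between tumours. By limma's test, 0 of 10 passed an adjusted p of 0.05 (adjusted p from 0.9935 to 0.9979), against 0.00355% of all 28192 probe sets. At an unadjusted p under 0.05 there were also 0 of 10, against 2.39% of all probe sets, and in 0 of 10 were the groups free of overlap, against 0.145%. Of the 10 differences, 5 were above 0 and 5 below, with a median of -0.01, beside a median of 0.02 over all probe sets, of which 57.2% were above 0. With each array shifted to a common median, 3 were above 0 and 7 below. In whole tumours, fewer cells of a type and less RNA per cell cannot be told apart.

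**Figure D1:**
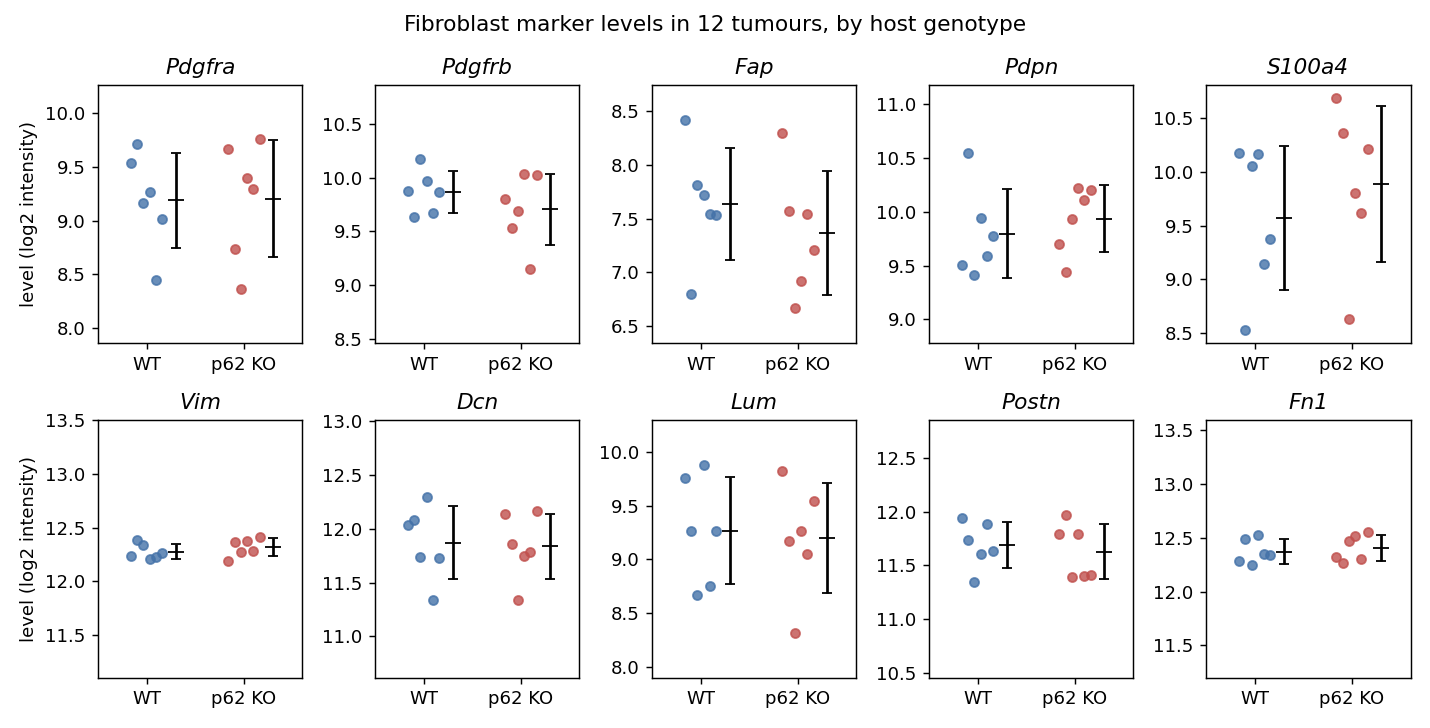
Level of each marker (log2 intensity, each vertical axis spanning the same 2.4 units) in the 6 WT and 6 p62 KO tumours, with points for tumours and bars for mean ± SD. The groups overlap in all 10 panels, and Vim and Fn1 show the least scatter.

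Pdgfra encodes the receptor for PDGF that marks many tissue fibroblasts. Its level ran from 8.44 to 9.71 (median 9.22) in WT tumours and from 8.37 to 9.76 (median 9.35) in KO tumours. The lowest tumour of each group, WT tumour 5 and KO tumour 3, lay near 8.4, and the upper ends of the groups met as well. The group means were 9.20 ± 0.55 (SD, n = 6) in KO and 9.19 ± 0.44 (SD, n = 6) in WT tumours, a difference of 0.01 (SE 0.25, adjusted p = 0.9979 by limma). Its sign hung on single tumours, from -0.13 without WT tumour 5 to 0.18 without KO tumour 3. The difference was 0.34 without KO tumours 2 and 3 (adjusted p = 0.6607) and 0.28 without the 4 arrays of narrow spread (adjusted p = 0.9894).

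Pdgfrb encodes the second PDGF receptor, shared by fibroblasts and the pericytes that wrap small vessels. It ran from 9.64 to 10.17 (median 9.87) in WT tumours and from 9.15 to 10.03 (median 9.75) in KO tumours. KO tumour 5 was the lowest of all 12. The difference was -0.16 (SE 0.15), with a 95% interval of -0.48 to 0.16, and -0.05 without KO tumour 5. Of the 7 pericyte genes, 0 passed by limma and 1 had an unadjusted p under 0.05, against 0.00355% and 2.39% of all probe sets. The mean level of these genes was 6.55 to 6.73 in KO and 6.18 to 6.71 in WT tumours. Pdgfrb had an r of -0.032 with this mean (rho = -0.161, permutation p = 0.919, n = 12), and -0.095 in the 8 arrays of wider spread. Pdgfrb was lower where epithelial genes were higher (8 genes, r = -0.635, rho = -0.720, permutation p = 0.0255, n = 12), which did not pass after adjustment over the 120 relations of markers with cell type lists (adjusted p = 0.382). With the 6 smooth muscle genes r was -0.560 (permutation p = 0.0572, adjusted p = 0.528, n = 12), and -0.858 in the 8 arrays of wider spread. With the 5 genes of the mesothelial list r was -0.698 (rho = -0.622, permutation p = 0.0104, adjusted p = 0.208, n = 12). That list includes the keratin Krt14, which basal epithelium also makes. The part of these cells was not tested.

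Fap encodes a surface serine protease that cuts collagen fragments and is low in most resting tissue. Its level ran from 6.79 to 8.42 (median 7.63) in WT tumours and from 6.67 to 8.29 (median 7.38) in KO tumours, a 3.35-fold range over the 12. WT tumour 1 and KO tumour 1 were the highest, KO tumour 3 and WT tumour 2 the lowest, and 5 of 6 KO tumours lay below the WT median. The difference was -0.27 (SE 0.28), or 1.21-fold lower, with a 95% interval from 1.83-fold lower to 1.26-fold higher. It was below 0 in each of the 12 leave-outs of a single tumour, between -0.45 without KO tumour 1 and -0.11 without WT tumour 1.

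Pdpn encodes podoplanin, a sialylated membrane glycoprotein that binds the platelet receptor CLEC-2. It ran from 9.42 to 10.55 (median 9.68) in WT tumours and from 9.44 to 10.22 (median 10.02) in KO tumours. WT tumour 2 was the highest of all, and 5 of 6 KO tumours lay above the WT median. The difference of 0.14 (SE 0.19) ranged from 0.07 without WT tumour 3 to 0.29 without WT tumour 2. Without the 4 arrays of narrow spread it was 0.40, with an unadjusted limma p of 0.0204 and an adjusted p of 0.9368. In that setting 5.09% of all probe sets had an unadjusted p under 0.05.

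S100a4, also called fibroblast-specific protein, encodes a calcium-binding protein that acts on non-muscle myosin. It varied most among the 10, from 8.53 to 10.17 (median 9.71) in WT tumours and from 8.63 to 10.68 (median 10.01) in KO tumours, a 4.44-fold range that placed its SD at the 97.7th percentile of all probe sets. WT tumour 2 and KO tumour 3 were the lowest and KO tumours 1 and 2 the highest. The difference of 0.31 (SE 0.35) had a 95% interval from 1.36-fold lower to 2.10-fold higher. It was 0.56 without KO tumour 3 and 0.10 without WT tumour 2.

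Vim encodes vimentin, the intermediate filament of mesenchymal cells. It was nearly level across tumours, from 12.21 to 12.38 (median 12.25) in WT and from 12.19 to 12.42 (median 12.33) in KO tumours, and its SD of 0.08 had a percentile of 0.568 among all probe sets. Among the 109 probe sets within 0.5 of its mean level its percentile was 6.42. The difference was 0.04 (SE 0.07), and its 95% interval reached no further than 1.09-fold lower and 1.15-fold higher. Vim stands close to the top of the scale, where the highest probe set of each array was at 13.03 to 13.35, and the part of signal saturation was not tested.

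Dcn encodes decorin, a small leucine-rich proteoglycan that coats collagen fibrils and binds TGF-beta. It ran from 11.34 to 12.29 (median 11.89) in WT tumours and from 11.34 to 12.16 (median 11.82) in KO tumours, with WT tumour 5 and KO tumour 3 together at the bottom. The difference was -0.03 (SE 0.17). It turned to 0.07 without KO tumour 3 and to 0.09 without KO tumours 2 and 3, and it was -0.14 without WT tumour 5.

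Lum encodes lumican, a relative of decorin that also regulates collagen fibrils. Its level ran from 8.67 to 9.88 (median 9.26) in WT tumours and from 8.32 to 9.83 (median 9.22) in KO tumours. KO tumour 3 was the lowest, and WT tumour 4 and KO tumour 1 were the highest of their groups. The difference of -0.07 (SE 0.26) turned to 0.11 without KO tumour 3 and to 0.16 without KO tumours 2 and 3.

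Postn encodes periostin, a matrix protein of remodelling tissue that binds integrins. It ran from 11.35 to 11.95 (median 11.68) in WT tumours and from 11.39 to 11.97 (median 11.60) in KO tumours. KO tumours 3, 5 and 6 and WT tumour 3 formed the low end. The difference was -0.06 (SE 0.13), and it stayed below 0 in all 24 alternatives.

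Fn1 encodes fibronectin, the matrix glycoprotein to which cells attach through integrins. It ran from 12.24 to 12.53 (median 12.34) in WT tumours and from 12.27 to 12.56 (median 12.40) in KO tumours, a 1.24-fold range in all. Its difference of 0.03 (SE 0.09) had a 95% interval from 1.11-fold lower to 1.17-fold higher. Like Vim it lies close to the top of the scale.

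**Figure D2:**
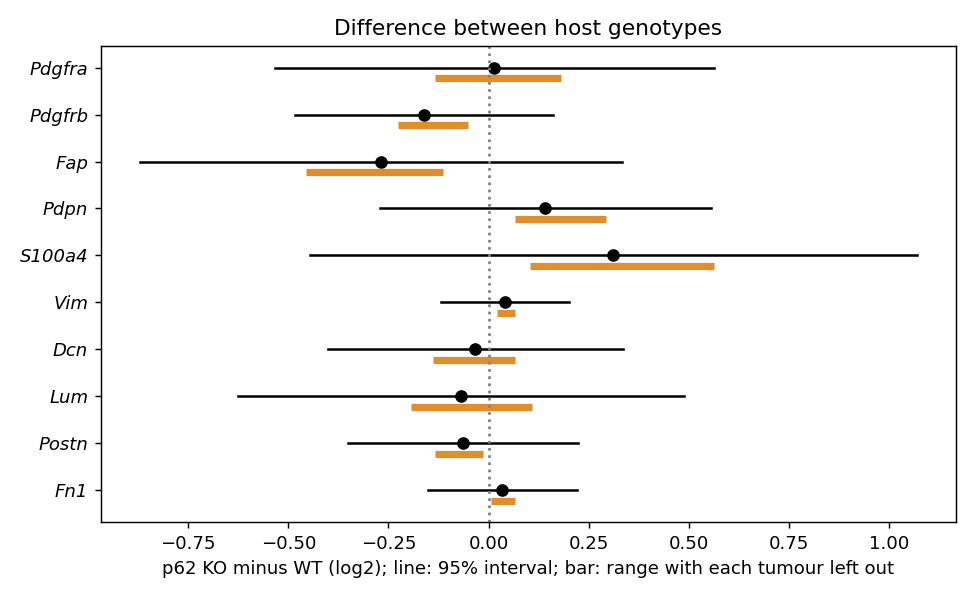
Difference between p62 KO and WT hosts (log2) for each marker, as point with 95% interval, with a bar below for the range when each of 12 tumours is left out in turn. All 10 intervals include 0, and those of Vim and Fn1 are the narrowest.

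The markers did not move as 1 block across tumours. Over the 45 pairs the median Pearson r was 0.232, 5 pairs reached 0.7 or more and 3 lay at -0.5 or below. Described after their values had been seen, the pairs fell into 3 patterns: Dcn, Lum and Pdgfra varied together, Pdpn went with Fn1, and Fap went with S100a4 while running opposite to Pdpn and, depending on the scaling, to Fn1 and Vim. With each array shifted to a common median, r with Fap was -0.28 for Fn1 and -0.0922 for Vim. Pdgfrb, Postn and Vim had no r of 0.5 or more with any other marker over the 12 tumours. In the 8 arrays of wider spread, Postn was at 0.624 with Lum. After adjustment over the 45 pairs, 2 passed in a two-sided permutation test of Pearson r, and 9 had an unadjusted p under 0.05. In the same permutation test of rho, only Dcn with Lum passed (adjusted p = 0.02745), and Pdgfra with Dcn did not (adjusted p = 0.103).

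**Figure D3:**
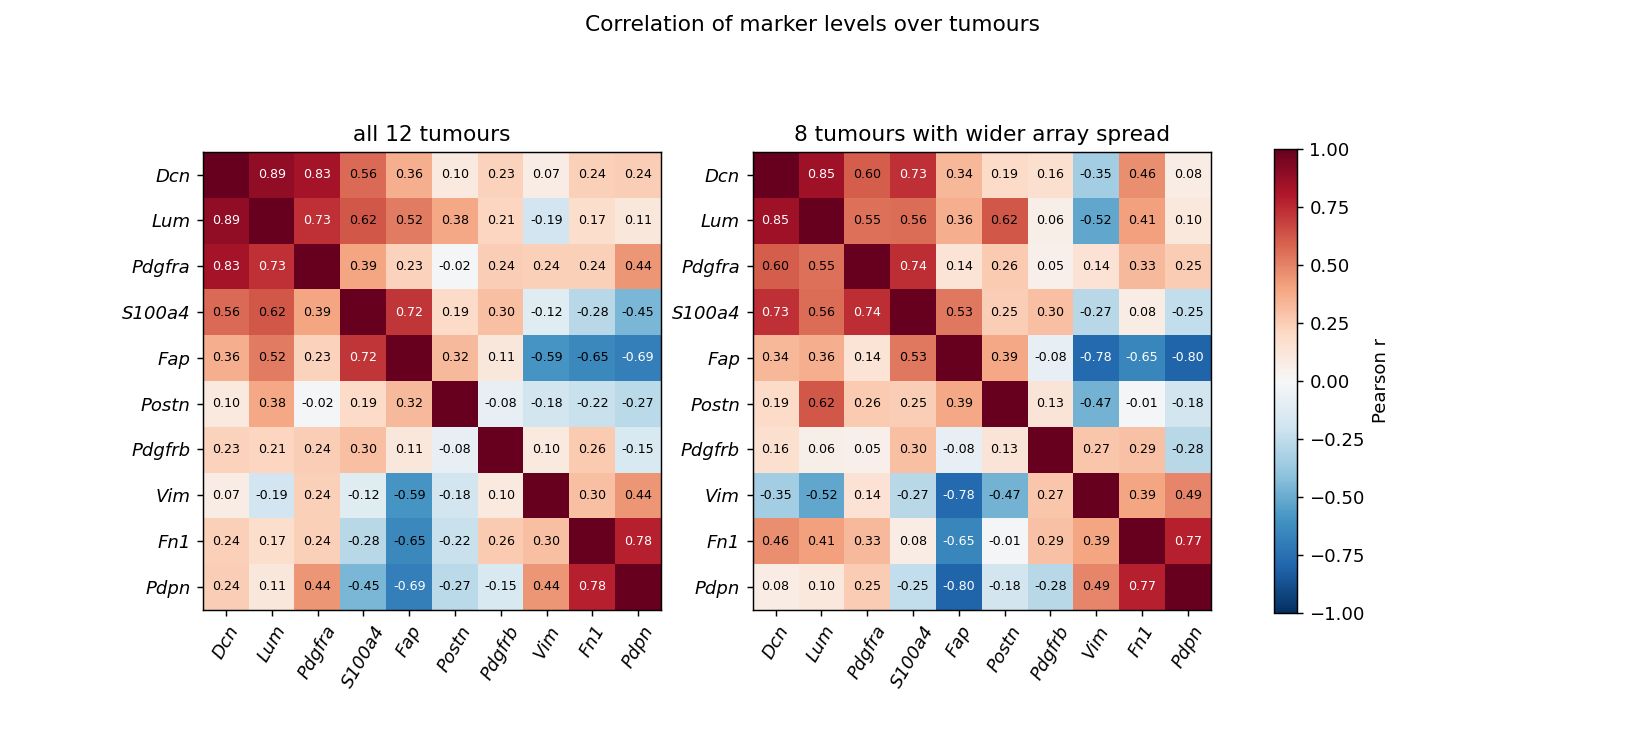
Pearson r between markers over all 12 tumours (left) and over the 8 tumours with wider array spread (right), with colour from -1 to 1. Dcn and Lum are at 0.89 and 0.85, and Fap and Pdpn at -0.69 and -0.80.

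Dcn and Lum were the tightest pair (r = 0.886, rho = 0.860, permutation p = 0.00019, adjusted p = 0.00855, n = 12). Without KO tumour 3 and WT tumour 5, the tumours farthest from the Dcn median, r was 0.810. It was 0.849 in the 8 arrays of wider spread and 0.886 after centring within host genotype, and it lay between 0.837 and 0.912 over the 12 leave-outs. Of the 19936 other genes, Lum was the most like Dcn and Dcn the most like Lum, each at rank 1. Only 0.497% of all probe sets had an r of 0.7 or more with Dcn and 0.451% with Lum. On the reference assembly the genes are next to each other, followed by Kera, another proteoglycan of the family.

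Pdgfra followed this pair. Its r with Dcn was 0.831 (rho = 0.748, permutation p = 0.0009, adjusted p = 0.0203, n = 12), and Pdgfra was at rank 5 of 19936 genes by likeness to Dcn, while by likeness to Pdgfra, Dcn was at rank 92 and Lum at 943. With Lum its r was 0.732 (rho = 0.706, permutation p = 0.00702, adjusted p = 0.0790, n = 12). KO tumour 3 and WT tumour 5 were low in all 3 genes, and without them r was 0.564 with Dcn and 0.451 with Lum. In the 8 arrays of wider spread the values were 0.602 and 0.552, so much of the Pdgfra relation rests on those tumours. Pdgfra also tracked the interquartile range of the arrays (r = 0.699, rho = 0.497, permutation p = 0.0125, adjusted p = 0.125 over the 10 markers, n = 12), at 0.371 without KO tumours 2 and 3 and -0.137 in the 8 arrays of wider spread. Of all probe sets, 6.02% had an r of 0.7 or more with Pdgfra. The part of array spread was not tested beyond this, and with the range regressed out r was 0.786 with Dcn and 0.635 with Lum.

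Pdpn and Fn1 formed the pattern least touched by the 4 narrow arrays. Their r was 0.778 (rho = 0.797, permutation p = 0.00407, adjusted p = 0.0611, n = 12), 0.755 without WT tumours 2 and 3, and 0.774 in the 8 arrays of wider spread. KO tumours 4 and 6 and WT tumours 2 and 4 were high in Fn1 and above the mean in Pdpn, whereas WT tumours 1 and 3 and KO tumour 2 were low in both. Fn1 was at rank 12 by likeness to Pdpn and Pdpn at rank 9 by likeness to Fn1. The range of Fn1 is small, and quantile normalization lowered this r to 0.628.

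Fap and S100a4 had an r of 0.717 (rho = 0.685, permutation p = 0.00894, adjusted p = 0.0805, n = 12). KO tumour 1 and WT tumour 1 were high in both genes, and KO tumour 3 and WT tumour 2 were low in both. Without KO tumour 3 and WT tumour 1 it was 0.642, in the 8 arrays of wider spread 0.527, and after centring within host genotype 0.830. S100a4 also had an r of 0.625 with Lum (rho = 0.525, permutation p = 0.0306, adjusted p = 0.172, n = 12). Its r with Dcn was 0.565 (rho = 0.587, permutation p = 0.0568, adjusted p = 0.256, n = 12), 0.793 without KO tumour 3 and WT tumour 2, and 0.732 in the 8 arrays of wider spread, so S100a4 was not apart from the first pattern.

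All 10 markers were set against the 12 lists of genes of other cell types, and S100a4 is given first. The 6 leukocyte genes, from Ptprc, which encodes CD45, to the lymphocyte genes Cd3e and Cd79a, averaged 7.68 to 8.23 in KO and 7.36 to 8.10 in WT tumours. WT tumour 2 was the lowest, as in S100a4. The r was 0.752 (rho = 0.594, permutation p = 0.0039, adjusted p = 0.208 over 120 relations, n = 12). It was 0.754 without KO tumour 4 and WT tumour 2, the tumours farthest from the median of this list, and 0.318 in the 8 arrays of wider spread. With the 10 macrophage genes r was 0.716 (rho = 0.434, permutation p = 0.00961, adjusted p = 0.208, n = 12), 0.208 without KO tumour 3 and WT tumour 2, and -0.045 in the 8 arrays of wider spread. With the 8 endothelial genes it was 0.706 (rho = 0.385, permutation p = 0.0104, adjusted p = 0.208, n = 12), and 0.0549 without the same tumours. With the 8 epithelial genes it was -0.640 (rho = -0.462, permutation p = 0.0244, adjusted p = 0.382, n = 12), and -0.238 without them. None of the 6 leukocyte or 10 macrophage genes lay below the lower quartile in all tumours, but Cd79a lay below it in 9 of 12. The part of these cell types in the level of S100a4 was not tested. Relations of like size were not particular to S100a4. Pdgfra had an r of -0.741 with the 6 skeletal muscle genes (rho = -0.552, permutation p = 0.00706, adjusted p = 0.208, n = 12), and -0.072 in the 8 arrays of wider spread. Lum had one of -0.706 with the mesothelial list (rho = -0.678, permutation p = 0.0103, adjusted p = 0.208, n = 12), and -0.417 in those 8 arrays. Across the 120 relations, 10 had an unadjusted p under 0.05 and 0 passed after adjustment.

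Against this stood the opposition of Fap to 3 other markers. With Pdpn its r was -0.687 (rho = -0.678, permutation p = 0.0144, adjusted p = 0.108, n = 12), with Fn1 -0.648 (rho = -0.608, permutation p = 0.0251, adjusted p = 0.162, n = 12) and with Vim -0.592 (rho = -0.559, permutation p = 0.0449, adjusted p = 0.225, n = 12). None of these passed after adjustment. In the 8 arrays of wider spread they were -0.797, -0.653 and -0.778. By likeness to Fap, Pdpn lay at rank 19823 of 19936 genes, Fn1 at 19737 and Vim at 19511, that is near the opposite end. Within these 8 arrays, however, Fap itself ran against the interquartile range (r = -0.843) and Vim with it (r = 0.880), and the part of array spread was not tested. With the range regressed out over the 12 tumours, r was -0.793 for Pdpn, -0.711 for Fn1 and -0.654 for Vim. Scaling moved them: under quantile normalization the 3 values were -0.808, -0.459 and -0.395, and the common median left Pdpn at -0.50. Pdpn and S100a4 were the lowest pair outside Fap, at -0.455 (rho = -0.378, permutation p = 0.138, adjusted p = 0.479, n = 12), and at -0.187 without WT tumour 2.

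**Figure D4:**
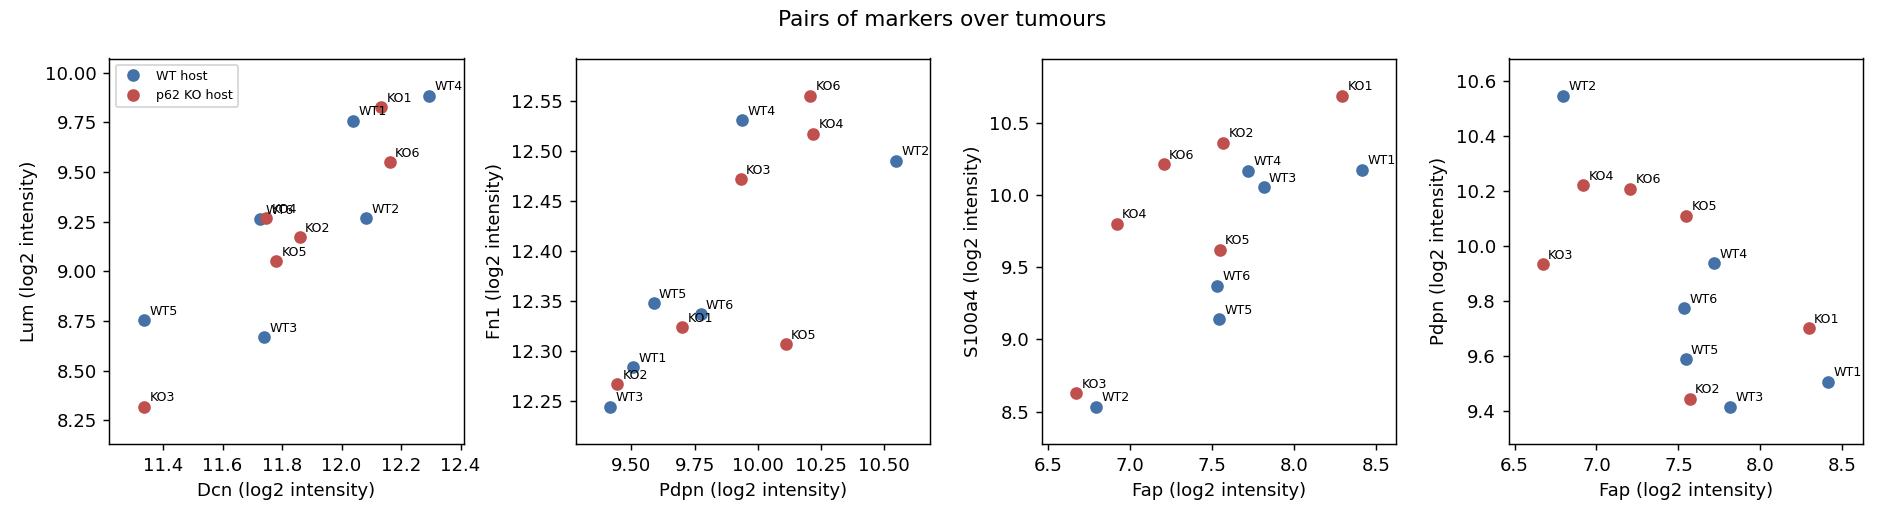
Levels (log2 intensity) of 4 pairs of markers in the 12 tumours, blue for WT and red for p62 KO hosts, each point labelled by host and mouse number. Dcn with Lum, Pdpn with Fn1 and Fap with S100a4 rise together (r = 0.886, 0.778 and 0.717), and Pdpn is lower where Fap is higher (r = -0.687).

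The tumours themselves differed more than the hosts. WT tumour 2 had the highest Pdpn (10.55) and the lowest S100a4 (8.53) of all 12, with Fap at 6.79. WT tumour 1 was its reverse, with the highest Fap (8.42) and a low Pdpn (9.51). KO tumour 3 was the lowest in Fap, Pdgfra and Lum, and only 2 of 10 markers, Pdpn and Fn1, were above their mean there. KO tumour 6 had the highest Pdgfra, Vim and Fn1, and 8 of its 10 markers were above their mean. Each pattern therefore has tumours of both genotypes at both ends. At the low ends, however, the KO tumours were 2 and 3, both of narrow array spread. WT tumour 2, low in Fap and S100a4, and WT tumour 5, low in Dcn, Lum and Pdgfra, were narrow as well. The part of array spread in these low ends was not tested.

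**Figure D5:**
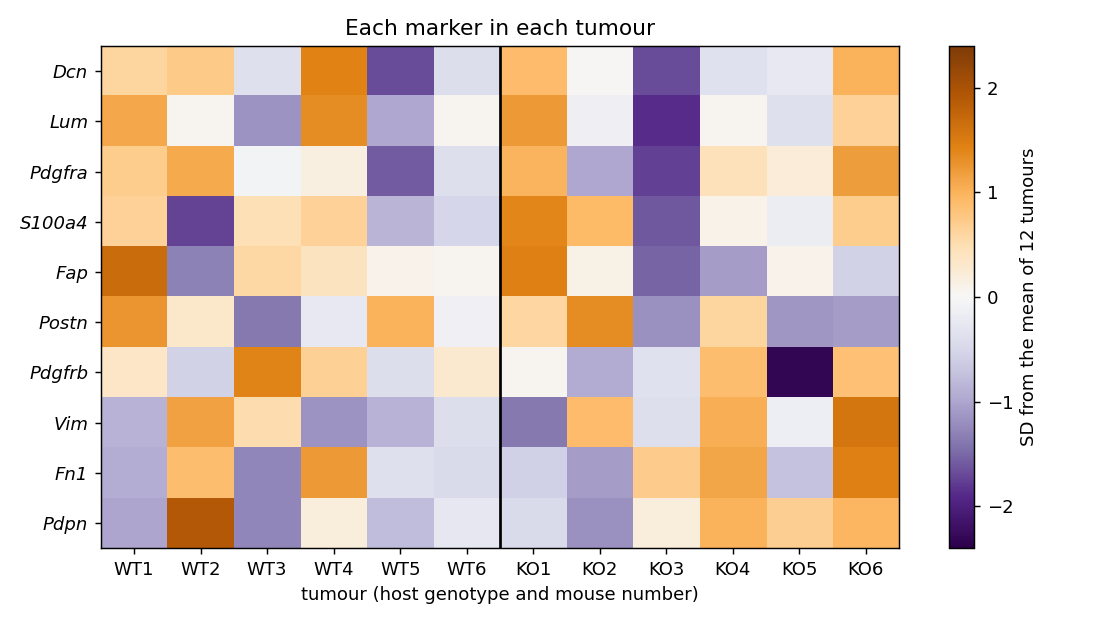
Each marker in each tumour as SDs from its mean over 12 tumours, WT hosts left of the line and p62 KO hosts right of it. WT tumour 2 and KO tumour 3 are low in S100a4 and Fap, and WT tumour 5 and KO tumour 3 are low in Dcn, Lum and Pdgfra.

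Promoter windows from RefSeq (GRCm38.p6, the 250 bases before an annotated start of transcription) are shown for 4 members, because they stand for the 3 patterns and for the level Vim: Pdgfra for the Dcn and Lum pattern, S100a4 for that of Fap, Pdpn for that of Fn1. Of the 10 members, 5 had an entry, these and Postn; Dcn, Lum, Fap, Fn1 and Pdgfrb had none. Capitals mark matches, on either strand, to the TATA box TATAAA, the CCAAT box CCAAT, the GC box GGGCGG, the AP-1 site TGANTCA and the Smad-binding CAGAC, which do not overlap one another here. The windows are chr5:75152001-75152250 on the plus strand for Pdgfra, chr3:90603520-90603769 on the plus strand for S100a4, chr4:143299565-143299814 on the minus strand for Pdpn and chr2:13574061-13574310 on the plus strand for Vim. The Pdgfra window lies inside the gene, which begins at 75151322, so it precedes a start within the gene. The windows of S100a4, Vim and Pdpn adjoin the annotated starts of their genes.
Pdgfra: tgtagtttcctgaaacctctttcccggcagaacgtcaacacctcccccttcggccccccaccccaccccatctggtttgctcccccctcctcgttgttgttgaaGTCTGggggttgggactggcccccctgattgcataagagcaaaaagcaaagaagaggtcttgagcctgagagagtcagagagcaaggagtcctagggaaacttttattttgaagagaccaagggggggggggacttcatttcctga
S100a4: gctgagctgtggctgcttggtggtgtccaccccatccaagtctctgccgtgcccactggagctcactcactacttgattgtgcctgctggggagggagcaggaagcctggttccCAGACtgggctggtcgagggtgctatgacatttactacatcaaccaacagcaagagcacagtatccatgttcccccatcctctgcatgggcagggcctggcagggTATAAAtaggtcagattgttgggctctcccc
Pdpn: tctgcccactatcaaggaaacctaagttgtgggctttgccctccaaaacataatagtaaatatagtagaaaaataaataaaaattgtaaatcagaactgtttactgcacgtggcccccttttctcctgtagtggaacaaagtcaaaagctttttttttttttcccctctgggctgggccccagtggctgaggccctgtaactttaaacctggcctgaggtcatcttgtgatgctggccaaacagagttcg
Vim: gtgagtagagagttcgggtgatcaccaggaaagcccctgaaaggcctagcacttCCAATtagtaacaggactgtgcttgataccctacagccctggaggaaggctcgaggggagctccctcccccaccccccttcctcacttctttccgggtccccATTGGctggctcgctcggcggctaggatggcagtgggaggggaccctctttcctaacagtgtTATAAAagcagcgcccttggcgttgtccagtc
S100a4 and Vim held TATAAA ending 26 and 27 bases before the start, as 12.4% of all 32851 windows of this length hold it somewhere. Vim had CCAAT on each strand, found in 33.9% of windows. Pdgfra and S100a4 had 1 CAGAC each, found in 42.2%. Pdpn had none of the 5 motifs. GGGCGG (32.7% of windows) and TGANTCA (6.75%) were in none of the 4. These are letter matches and not sites.

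For each marker the genes with the most similar pattern over the 12 tumours (members left out) were named by Pearson r. For Pdgfra they were Copz2, a coat protein subunit of Golgi vesicles (0.971), the tropomyosin Tpm2 (0.969) and the adhesion molecule Clmp (0.919). In the 8 arrays of wider spread these were 0.895, 0.849 and 0.871. Postn had the closest match to a matrix gene in Aspn, which encodes asporin, a small leucine-rich proteoglycan (0.850, and 0.920 in the 8 arrays), with Chrna10 at 0.853 and 4930507D05Rik at 0.843. Vim was followed by the ribosomal protein genes Rpsa (0.881), Rpl38 (0.875) and Rps10 (0.864). The first gene for Pdpn was the keratin Krt19 (0.900), which ran from 5.87 to 8.13 and was highest in WT tumour 2, as Pdpn was, and Ccdc115 (0.836) and Mapk12 (0.826) came next. S100a4 was led by the myeloid lectin receptor Clec4a1 (0.919), Selenof (0.909) and BC028528 (0.891). For Fap they were Smim8 (0.869), the ephrin receptor Epha7 (0.863) and Fhod3 (0.863). For Pdgfrb they were the scaffold gene Dlg4 (0.873), Tmem176a (0.852) and Cyb561a3 (0.851). For Fn1 they were Grina (0.869), Ctdp1 (0.828) and Arhgap23 (0.811). Dcn was followed by Ndfip1 (0.872), Niban1 (0.859) and Zfp202 (0.848), and Lum by Rabl2 (0.868), Zfp202 (0.839) and Ptrhd1 (0.828). Each was picked as the highest of all genes, so these values describe and do not test.

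Relations of Dcn, Lum and Postn, which is not of this family, with 11 small leucine-rich proteoglycans other than Dcn and Lum differed from gene to gene. These 33 relations were examined after the values had been seen. Lum had an r of 0.683 with the mean of these 11 genes (0.753 in the 8 arrays of wider spread), Dcn one of 0.335 (0.377) and Postn one of 0.748 (0.953). The relation was not particular to these markers, since Fap was at 0.704 (0.518) and S100a4 at 0.611 (0.300). Pdgfra was at 0.176, Pdgfrb at 0.096, Fn1 at -0.268, Pdpn at -0.4255 and Vim at -0.482. Among single genes, Lum was at 0.680 with Ecm2 and 0.595 with Epyc, and Dcn was at 0.566 with Ecm2. Without KO tumour 3 and WT tumour 5 the Ecm2 values were 0.253 with Lum and -0.176 with Dcn. Kera, the neighbour of Lum, was at 0.447 with Lum and 0.431 with Dcn, and Bgn, which encodes biglycan, was at 0.143 with each. Postn was at 0.745 with Omd, which encodes osteomodulin, and Aspn, already named above for its likeness to Postn, was at 0.894 without KO tumour 3 and WT tumour 1. Epyc had the widest range of the family, from 4.92 in WT tumour 3 to 9.40 in WT tumour 1.

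The genes around the markers did not pass between hosts either. In 8 lists of fibroblast states, ligands, receptors and partners, 0 of 96 measured genes passed and 3 had an unadjusted limma p under 0.05, against 0.00355% and 2.39% of all probe sets. Of 21 other fibroblast genes, 9 were higher and 12 lower in KO tumours (median -0.03), or 7 lower without KO tumours 2 and 3 (median 0.05), with the crosslinking enzyme Loxl1 at 0.31 (SE 0.15) the microfibril gene Mfap5 at -0.41 (SE 0.22) and the matrix gene Fbln1 at 0.16 (SE 0.09). Of 16 genes of contractile fibroblasts, 5 were higher and 11 lower (median -0.02), or 8 lower without those tumours (median 0.02), with Thbs2, a thrombospondin, at 0.35 (SE 0.13, adjusted p = 0.9935), the matricellular gene Ccn2 at 0.36 (SE 0.17) and the calponin Cnn1 at 0.24 (SE 0.12). Of 16 genes of cytokine-secreting fibroblasts, 9 were higher and 7 lower (median 0.04, or 0.22 without KO tumours 2 and 3), with the chemokines Ccl2 at 0.41 (SE 0.19) and Ccl7 at 0.38 (SE 0.19) and the cytokine Lif at 0.25 (SE 0.15). The 6 antigen-presenting genes had a median of -0.25, or 0.02 without KO tumours 2 and 3. Among them the protease inhibitor Slpi was at 0.31 (SE 0.17), the acute-phase gene Saa3 at 0.14 (SE 0.10) and H2-Aa, which leukocytes also make, at -0.40 (SE 0.69), or 0.03 without KO tumours 2 and 3.

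Ligands and receptors for the markers did not pass either. Of the 4 PDGF ligands, 1 was higher and 3 lower (median -0.13), with Pdgfc at -0.23 (SE 0.15) and at 0.0024 without KO tumours 2 and 3, Pdgfd at -0.32 (SE 0.41) and Pdgfb at 0.10 (SE 0.11). Of 10 receptors for fibronectin and periostin, 6 were higher and 4 lower (median 0.01), with the integrin subunit Itgb3 at 0.34 (SE 0.10, adjusted p = 0.9935), Itgb5 at 0.13 (SE 0.13) and the syndecan Sdc4 at 0.12 (SE 0.10). Of 12 partners of the other markers, 7 were higher and 5 lower, with the hyaluronan receptor Cd44 at -0.23 (SE 0.14), or -0.02 without KO tumours 2 and 3, the intermediate filament gene Des at 0.21 (SE 0.10) and the linker Plec at 0.14 (SE 0.12). The 11 small leucine-rich proteoglycans had 5 higher and 6 lower, with Kera at 0.53 (SE 0.44), Epyc at -0.84 (SE 0.65) and Omd at -0.31 (SE 0.22).

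In 12 lists of other cell types, 0 of 75 measured genes passed and 4 had an unadjusted p under 0.05, against 0.00355% and 2.39% of all probe sets. Cnn1 and Des are also among the 96 genes above. The median differences of the lists lay between -0.04 for prostate secretory genes and 0.21 for pericyte genes. Over all probe sets, 57.2% of differences were above 0, with a median of 0.02, or -0.02 without KO tumours 2 and 3. The macrophage list had 8 of 10 genes higher in KO tumours, and 10 of 10 without KO tumours 2 and 3. Its first genes, Adgre1 and Cd68, were at -0.13 and 0.20, or 0.27 and 0.34 without those tumours. All 6 smooth muscle genes were higher (5 without those tumours), with Myh11 at 0.08 and Cnn1 at 0.24, and so were 5 of 7 pericyte genes (6 without), with Cspg4 at 0.23 and Rgs5 at -0.15 (0.22 without). Of 8 endothelial genes 5 were higher (6 without), with Pecam1 at -0.04 (0.37 without) and Cdh5 at 0.17 (0.41 without). Of 3 lymphatic genes 2 were higher, with Prox1 at 0.12 and Lyve1 at 0.44. The epithelial list turned, from 1 of 8 genes lower to 6 of 8 without KO tumours 2 and 3, with Epcam going from 0.02 to -0.17 and Krt8 from 0.02 to -0.20. The 5 genes of the mesothelial list had 4 higher, with Msln at 0.15 and Upk3b at 0.20. Of 6 leukocyte genes 4 were higher (5 without), with Ptprc at -0.07 (0.09 without) and Cd52 at 0.04 (0.21 without). Of 6 adipocyte genes 5 were higher (4 without), with Plin1 at 0.17 and Adipoq at 0.08 (-0.17 without). The skeletal muscle list had 1 of 6 lower, or 4 of 6 without, with Ckm at 0.03 (-0.16 without) and Acta1 at 0.10 (-0.07 without). All 3 Schwann genes were higher. Of 7 prostate secretory genes 3 were higher, with Pbsn at 0.06 and Sbp at -0.34. The Sbp value rests on WT tumour 4, at 6.05, and in the other tumours Sbp lay below the lower quartile of its array. For mesothelial genes, as a cell type that also makes Pdpn, the mean level was 6.52 to 7.01 in KO and 6.52 to 6.79 in WT tumours, and r with Pdpn was 0.149 (rho = -0.007, permutation p = 0.643, n = 12). This mean joins Msln, at 8.52 to 9.87, with genes at 5.26 to 6.66, among them Krt14, which is not particular to mesothelium. Msln by itself was highest in KO tumours 4, 5 and 6, where Pdpn was above its mean. It was lowest in KO tumours 1 and 2, where Pdpn was below its mean. In WT tumour 2, highest in Pdpn, Msln was at 9.19. The relation of Msln alone was not tested. For lymphatic endothelium, Prox1 lay below the lower quartile in all 12 tumours and Flt4 in 2, whereas Lyve1, at 7.30 to 10.85, lay above it in all 12. The part of these cells in the marker levels was not tested.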

How the data were processed

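Each deposited value is a log2 intensity of 1 probe set on a single-colour array. RMA is named per the submitters' processing notes, without a version. RNA was extracted with TRIzol and amplified before labelling, per the labels' protocols. The table had 34760 rows, of which 6568 with the lowest identifiers carry no gene and were left out, and 28192 probe sets were tested. Of these, 21640 have 1 gene symbol, 1321 several and 5231 none. The host comparison was a two-sided limma fit (version 3.58.1, run under R 4.3.3, lmFit then eBayes, no covariate). Its p-values were adjusted by Benjamini-Hochberg across every tested probe set. Correlations used 100000 permutations of tumours, two-sided. Precision is limited by the number of arrays, and p-values measure the spread between mice. Members and lists were chosen with earlier results of these data known. Of 179 other listed genes, 171 were measured. All 10 markers are named, with Sqstm1, the 3 genes of smallest unadjusted p in each fibroblast, ligand, receptor or partner list, the first 2 genes of each cell type list where measured, the 6 highest and 4 lowest pairs, and the 3 genes most similar to each marker. Other genes and pairs, such as Krt18, Bgn, Ecm2 and S100a4 with Dcn, were named after their values were seen. Alternatives covered scaling, probe set choice, variance models, array spread, a mouse-number block and omitted tumours. The limma step was tested on simulated data. The mouse numbers did not pair tumours: same-numbered tumours had correlations of deviations from -0.55 to 0.37. Plots used matplotlib 3.10.9.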

Additional observations from a re-analysis of the deposited data

How the results depend on the processing

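None of the 10 markers passed in any of the 24 alternatives (smallest adjusted p 0.6607), and 220 of 240 differences kept their direction. The replicate block by mouse number left 0 of 10 called, with differences equal to those without it (Fap -0.27, S100a4 0.31), since each number occurs once per host; the numbers do not pair the tumours. A common median per array turned Pdgfra to -0.0203 and Fn1 to -0.0001. The interquartile range as a covariate turned Dcn to 0.0097. Without KO tumours 2 and 3, Dcn turned to 0.0863 and Lum to 0.16, and without these and WT tumours 2 and 5 to 0.0058 and 0.0301. With each tumour left out in turn, Pdgfra ranged from -0.13 to 0.18, Dcn from -0.14 to 0.0670 and Lum from -0.19 to 0.11. The count of pairs with r of 0.7 or more, 5 over all tumours, was 2 after quantile normalization and 3 with the interquartile range regressed out, and ranged from 3 (without KO tumour 1 or KO tumour 3) to 7 (without WT tumour 2) over the leave-outs. Dcn with Lum lay between 0.837 and 0.912 in its 19 alternatives, and at 0.810 without both KO tumour 3 and WT tumour 5. The cause of these shifts was not tested. Vim and Fn1 lie near the top of the intensity scale.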
